A study of Mus musculus with 6 samples.

Results

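STAT transcription factors and JAK kinases were examined in CD4 T cells driven towards the Th17 state, the interleukin-17 producing type of helper T cell. The members were the rows of the expression table named Stat2, Stat3, Stat4, Stat5a, Stat5b, Stat6, Jak1, Jak2 and Jak3, and all 9 were found once each among 33300 features. They comprise 6 STAT genes and 3 JAK genes. Cells of 3 SLE1.2.3 mice were compared with cells of 3 control mice, whose genotype is labelled WT. SLE1.2.3 mice are prone to lupus and are known to hold 3 susceptibility intervals, called Sle1, Sle2 and Sle3, and the strain of the controls is not given in the sources used here. All mice were females matched for age, with no age given. In both groups naive CD4 T cells were cultured on plates coated with antibodies to CD3 and CD28 for 5 days. The medium held 1 ng/mL TGF-β1, 50 ng/mL IL-6, 10 ng/mL IL-1β, 10 ng/mL IL-23 and 10 µg/mL each of anti-IL-4 and anti-interferon-γ antibody. Each library is named by its group and mouse number.

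Cytokine receptors of this class have no kinase of their own and carry JAK kinases on their inner tails. A bound cytokine lets the JAKs phosphorylate the receptor and then a STAT protein, which enters the nucleus as a dimer and binds DNA. IL-6, IL-21 and IL-23 act through STAT3 in Th17 cells, whereas IL-2 acts through STAT5, which competes with STAT3 at the Il17a locus. IL-12 acts through STAT4 in Th1 cells, IL-4 through STAT6 in Th2 cells, and type I interferons through STAT2, which pairs with IRF9 in the complex that reads interferon-stimulated genes. STAT activity is set by phosphorylation, so RNA levels measure how much of a factor's message is present and not how active the factor is.

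The members were well covered. Assigned reads per library ran between 29730000 and 83460000, and a member held between 1676 and 43627 reads in a library. SLE1.2.3 libraries were on average 1.61 times as deep as control libraries. Ribosomal RNA and its copies took 2.43% of the reads of control mouse 3 and at most 0.302% in every other library. In all, 1733 of 11378 tested genes, or 15.2%, were called at a limma adjusted p of 0.05, and 9.65% were higher while 5.58% were lower in cells of SLE1.2.3 mice. Error in these tests is the spread from mouse to mouse. The CD4 T cell markers, 9 in all, were present in every library, and their summed level was 1494 to 1872 FPKM in SLE1.2.3 libraries and 1743 to 1842 FPKM in control libraries. Markers of other lymphocytes were also present in the SLE1.2.3 libraries. The 7 markers of γδ and NKT cells summed to 53.7, 242 and 538 FPKM in SLE1.2.3 mice 1, 2 and 3, against 2.71 to 3.06 FPKM in control mice. The 7 markers of CD8 T and NK cells summed to 30.3, 90.5 and 155 FPKM in SLE1.2.3 mice and to 11 to 12.1 FPKM in control mice. The 7 B and plasma cell markers summed to 62.7, 92.4 and 161 FPKM in SLE1.2.3 mice and to 2.59 to 4.43 FPKM in control mice, and the 7 myeloid markers to 3.21 to 10.9 FPKM in SLE1.2.3 mice and 7.57 to 9.22 FPKM in control mice. No marker was listed at 0 in all libraries of a group. In such bulk libraries, fewer cells of a type and less RNA per cell cannot be told apart.

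Stat2 was the member that passed the test. It was higher in SLE1.2.3 cells, and the other 8 members, Stat3 and all 3 JAK genes among them, did not pass. That is 1 of 9 members, or 11.1%, beside 15.2% of all tested genes. The groups did not overlap for 2 members, Stat2 and Stat3, or 22.2%, beside 41.5% of tested genes. The median log2 change of the 9 members was 0.04, with 0.01 over all tested genes, and 6 of the 9 changes were positive. Their median absolute change was 0.19, with 0.17 over all tested genes. Summed over each family the level was close between groups, with STAT sums of 242 ± 25 FPKM in SLE1.2.3 cells and 244 ± 16.5 FPKM in control cells (SD, n = 3 each). The JAK sums were 247 ± 11.7 FPKM in SLE1.2.3 cells and 248 ± 12.8 FPKM in control cells.

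**Figure D1:**
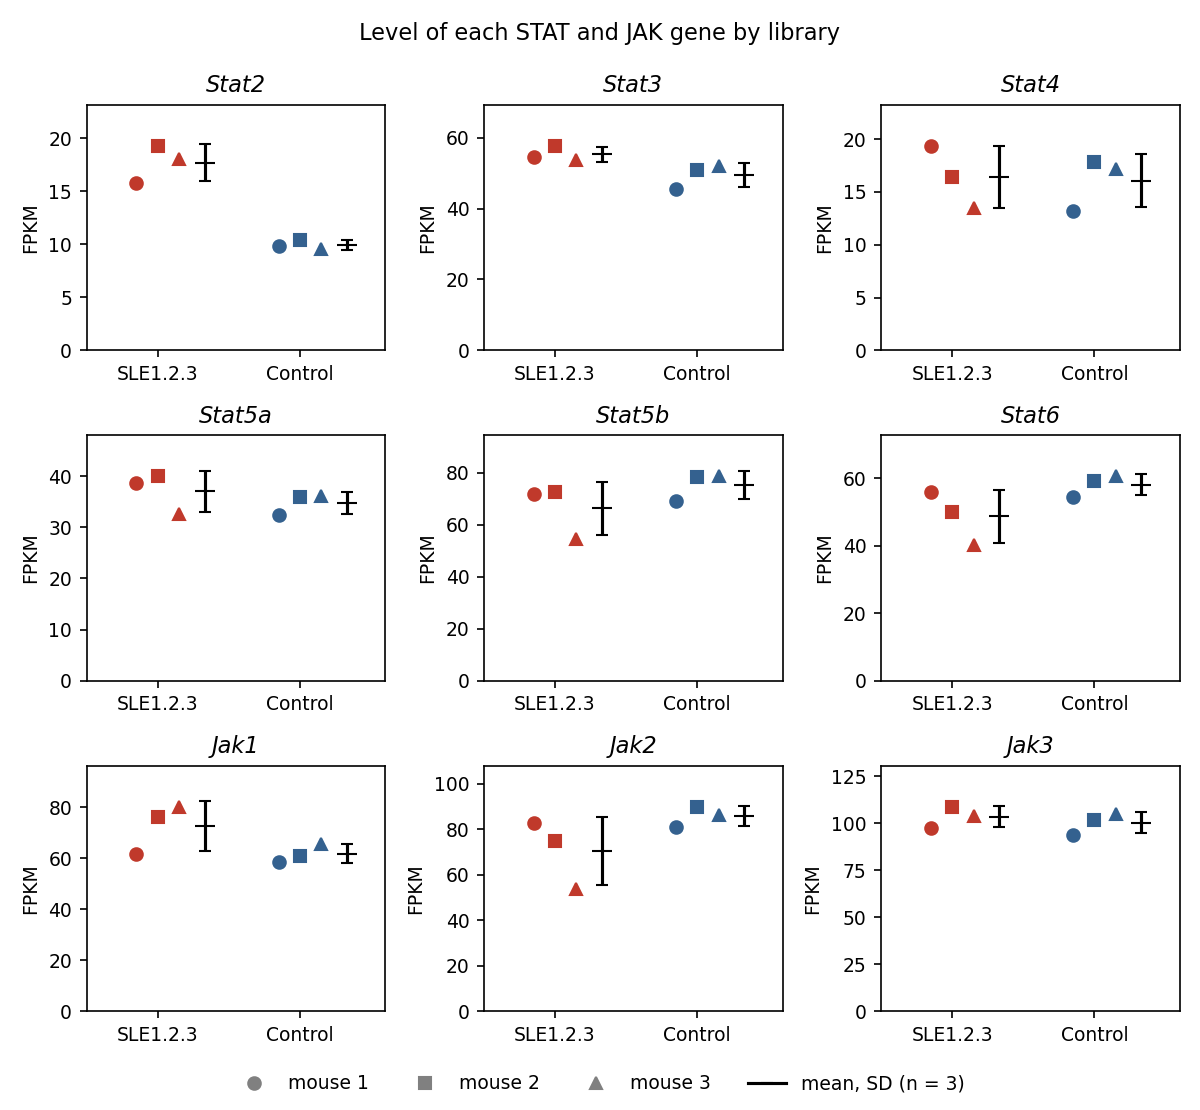
Level of each member in FPKM (vertical axes, from 0) in the 3 SLE1.2.3 and 3 control libraries, with the symbol giving the mouse number and the bar the mean and SD. Stat2 lies at 15.8 to 19.3 FPKM in SLE1.2.3 libraries and 9.51 to 10.4 FPKM in control libraries, while Jak2, Stat5b and Stat6 are lowest in SLE1.2.3 mouse 3.

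Stat2 encodes the STAT of type I and type III interferon signalling. Its gene lies on the plus strand of chromosome 10 at 128270559 to 128292849 (mm10). Stat2 stood at 15.8, 19.3 and 18.0 FPKM in SLE1.2.3 mice 1, 2 and 3, against 9.85, 10.4 and 9.51 FPKM in control mice 1, 2 and 3. All 3 SLE1.2.3 libraries lay above all 3 control libraries. The mean level was 17.7 ± 1.76 FPKM in SLE1.2.3 cells and 9.90 ± 0.423 FPKM in control cells (SD, n = 3 each), 1.78 times as high. On the log2(FPKM + 1) scale the change was 0.77 ± 0.09 (SE; 95% interval 0.57 to 0.98; limma adjusted p = 0.0069). Its absolute change was larger than that of 91.5% of tested genes. The adjusted p lay between 1.4e-04 and 0.042 over all 18 fits, which include the one with SLE1.2.3 mouse 1 as the lone SLE1.2.3 library, where the change was 0.62 and the spread came from the controls.

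Stat2 also changed place in the order of levels. FPKM is per length, so levels of different genes can be set side by side. In control cells Stat2 was the least abundant member, below Stat4 in 3 of 3 libraries with no overlap. In SLE1.2.3 cells the mean level of Stat2 was 17.7 FPKM and that of Stat4 16.5 FPKM, with Stat2 above Stat4 in 2 of 3 libraries and overlapping ranges. Stat2 made up 6.16%, 7.52% and 8.45% of the summed STAT level in SLE1.2.3 mice 1, 2 and 3, against 4.38%, 4.10% and 3.74% in control mice. These shares are ratios within a library and do not depend on its scaling.

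Promoter windows from RefSeq (GRCm38.p6, the same assembly as mm10), 250 bases before to 50 after a transcript start, were available for all 9 members, with 12 windows in all. They were searched on both strands for the interferon-stimulated response element core GAAANNGAAA, the STAT dimer site TTCNNNGAA and the wider-spaced TTCNNNNGAA that STAT6 favours. The first was found in 2 of the 12 member windows and in 3.44% of all 32851 windows, the second in 0 of 12 and in 8.30% of all, and the third in 1 of 12 and in 6.95% of all. Stat2 held the first and the third, and the second listed start of Stat4 held the first. These 2 windows are shown because they carry the matches, beside that of Cish, an inhibitor gene of the same pathway that was lower in SLE1.2.3 cells and whose window holds 2 copies of TTCNNNGAA. Capitals mark the matches, each sequence is given on the strand of its gene, and the motifs do not overlap in these windows.
Stat2 (chr10:128270248-128270547, plus strand): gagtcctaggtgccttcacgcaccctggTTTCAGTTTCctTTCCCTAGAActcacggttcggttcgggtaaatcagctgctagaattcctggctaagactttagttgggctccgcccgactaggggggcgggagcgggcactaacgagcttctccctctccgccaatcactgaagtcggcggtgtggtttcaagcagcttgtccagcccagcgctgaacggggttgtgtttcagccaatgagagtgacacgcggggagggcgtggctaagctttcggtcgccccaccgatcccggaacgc
Stat4, second start (chr1:52007990-52008289, plus strand): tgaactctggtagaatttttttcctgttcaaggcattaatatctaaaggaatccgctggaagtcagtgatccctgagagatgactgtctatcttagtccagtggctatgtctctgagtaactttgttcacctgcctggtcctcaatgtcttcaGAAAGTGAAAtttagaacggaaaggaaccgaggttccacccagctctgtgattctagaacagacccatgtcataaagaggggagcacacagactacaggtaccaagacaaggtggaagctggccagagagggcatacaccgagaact
Cish (chr9:107296409-107296708, plus strand): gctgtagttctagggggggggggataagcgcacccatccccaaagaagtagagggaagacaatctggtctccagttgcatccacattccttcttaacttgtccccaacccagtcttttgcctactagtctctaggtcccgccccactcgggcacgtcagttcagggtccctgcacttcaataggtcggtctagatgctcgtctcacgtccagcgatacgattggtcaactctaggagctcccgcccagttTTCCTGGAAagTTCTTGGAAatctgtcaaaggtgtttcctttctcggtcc
In Stat2 the response element reads TTTCAGTTTC, or GAAACTGAAA on the other strand, and begins at position -222 from the RefSeq start. In Stat4 it reads GAAAGTGAAA and begins at position -97 of the second start. Stat2 passed the test and Stat4 did not. The RefSeq start used for Stat2 lies before the measured gene, which begins at 128270559, and its window ends at 128270547. For the Stat2 and Cish windows, a stretch just after the start was not found near the beginning of their protein-coding GENCODE M21 transcripts. The windows of Irf9, the DNA-binding partner of STAT2, were also searched, and Irf9 was higher in SLE1.2.3 cells. Neither of its 2 listed starts held GAAANNGAAA or TTCNNNGAA, and the first held TTCNNNNGAA. A match of letters describes the window and is not a measured binding site.

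The tested genes whose values ran most like those of Stat2 over the 6 libraries included its neighbour. Among 9672 protein-coding candidates, the highest Pearson r of log2(FPKM + 1) was 0.9983, for Pan2, followed by 0.998 for Tigit and 0.9977 for Nrbp1. With 6 libraries in 2 groups such values are common, and 570 candidates exceeded 0.95. Pan2 encodes a subunit of a deadenylase that shortens poly(A) tails, and it begins 10.5 kb beyond the end of Stat2 on the same strand of chromosome 10. Pan2 stood at 6.66, 7.39 and 7.10 FPKM in SLE1.2.3 mice 1, 2 and 3, against 5.42, 5.54 and 5.21 FPKM in control mice. The order of the mice is the same as for Stat2 in both groups, which largely follows from the choice of Pan2 by its r. Its change was smaller than that of Stat2, at 0.33 ± 0.06 on the log2 scale (SE; limma adjusted p = 0.025). Of 26 tested genes within 250 kb of Stat2, Pan2 was the 1 that rose, and Atp5b and Timeless fell. Of all tested genes, 9.65% rose and 5.58% fell. Tigit, an inhibitory receptor gene, stood at 27.9 ± 5.61 FPKM in SLE1.2.3 cells and 5.09 ± 0.871 FPKM in control cells, and Nrbp1 had 25.7 ± 1.05 FPKM in SLE1.2.3 cells and 20.6 ± 0.465 FPKM in control cells (SD, n = 3 each).

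**Figure D2:**
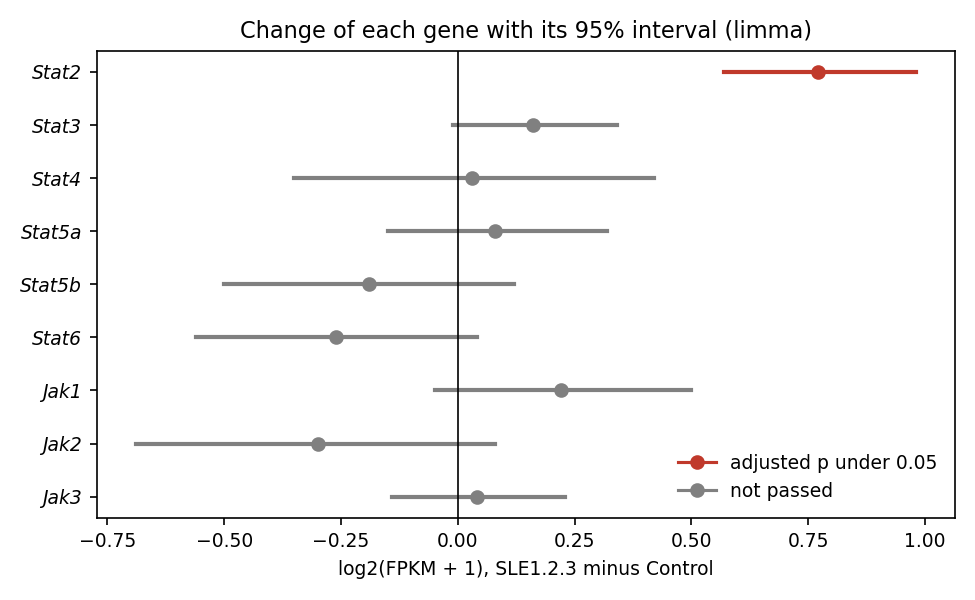
Change of each member on the log2(FPKM + 1) scale, SLE1.2.3 minus control (horizontal axis), with the limma estimate as a point and its 95% interval as a line. Stat2 is at 0.77, and the intervals of the other 8 members include 0.

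The JAK kinases differ in the receptors they serve. Jak3 binds the common γ chain of the receptors for IL-2, IL-7 and IL-21 and is largely restricted to blood cells. Jak1 pairs with it and also serves the gp130 and interferon receptors, and Jak2 serves the receptors for IL-12, IL-23, GM-CSF and interferon-γ. Jak3 (chromosome 8, 71676296 to 71690575) was the most abundant member in both groups. Its level was 97.7, 109 and 104 FPKM in SLE1.2.3 mice 1, 2 and 3, against 94.1, 102 and 105 FPKM in control mice. These ranges overlapped throughout, and the log2 change was 0.04 (95% interval -0.14 to 0.23; adjusted p = 0.73).

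Jak2 (chromosome 19, 29251828 to 29313080) stood at 82.6, 74.7 and 53.8 FPKM in SLE1.2.3 mice 1, 2 and 3, against 81.1, 90.0 and 86.4 FPKM in control mice. Mouse 1 lay within the control range, whereas mouse 2 and above all mouse 3 lay below it. The mean was 70.4 ± 14.9 FPKM in SLE1.2.3 cells and 85.9 ± 4.47 FPKM in control cells (SD, n = 3 each), and the change of -0.30 did not pass (95% interval -0.69 to 0.08; adjusted p = 0.23). Jak1 (chromosome 4, 101152367 to 101265282) ran the other way, with 61.6, 76.2 and 80.3 FPKM in SLE1.2.3 mice 1, 2 and 3, against 58.5, 61.0 and 65.8 FPKM in control mice. SLE1.2.3 mice 2 and 3 lay above every control library and mouse 1 among them, and the change of 0.22 did not pass either (95% interval -0.05 to 0.50; adjusted p = 0.21). Without SLE1.2.3 mouse 1 the Jak1 change was 0.34 and passed (limma adjusted p = 0.021), and after removal of SLE1.2.3 mice 2 and 3 it was near 0.

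As shares of the summed JAK level, Jak2 made up 34.2%, 28.7% and 22.6% in SLE1.2.3 mice 1, 2 and 3, against 34.7%, 35.5% and 33.5% in control mice. Jak1 made up 25.5%, 29.3% and 33.7% in SLE1.2.3 mice and 25%, 24.1% and 25.5% in control mice. In SLE1.2.3 mice 2 and 3 the level of Jak1 was thus above that of Jak2, by a small margin in mouse 2, whereas Jak2 was above Jak1 in SLE1.2.3 mouse 1 and in every control library. The summed γδ and NKT markers were at 53.7, 242 and 538 FPKM in the same 3 SLE1.2.3 libraries, Cd8a at 1.34, 21.4 and 56.4 FPKM, and Cd4 at 257, 144 and 71.6 FPKM. Their part in the JAK values was not tested.

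**Figure D3:**
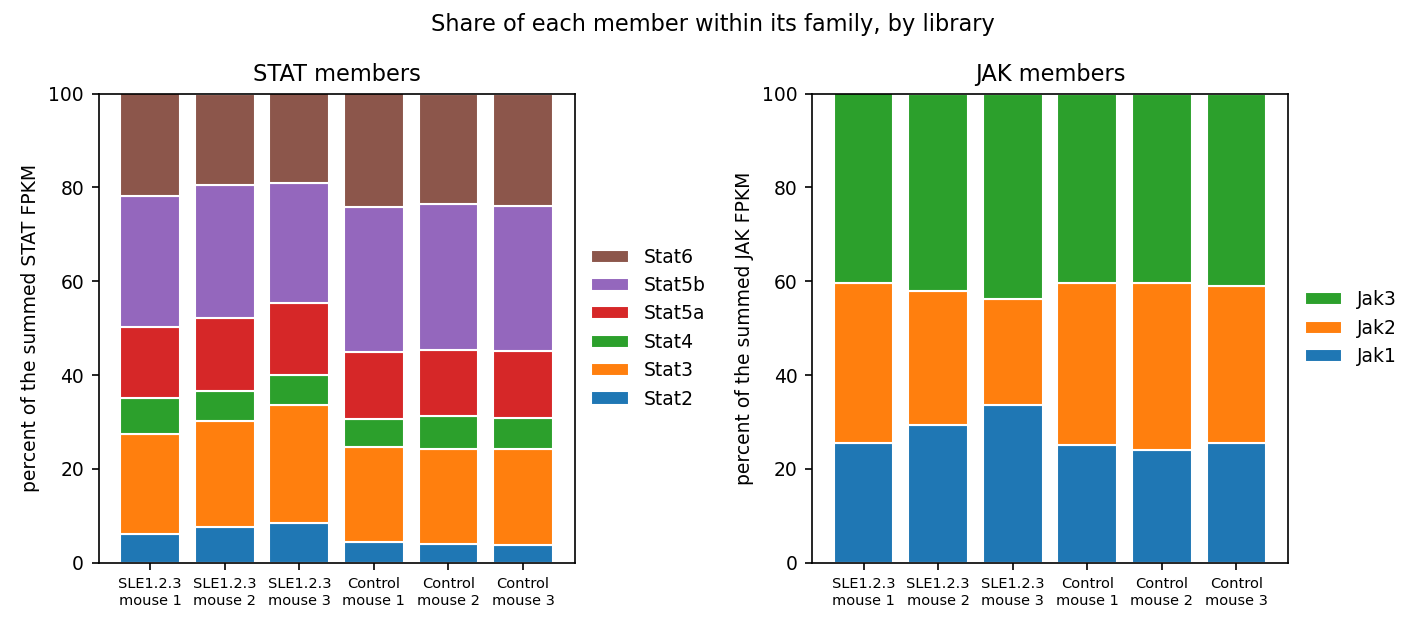
Percent of the summed FPKM of the 6 STAT members (left) and of the 3 JAK members (right) taken by each gene, with 1 bar per library and SLE1.2.3 libraries to the left of control libraries. The control bars are nearly alike, while among SLE1.2.3 libraries the Jak2 share runs between 22.6% and 34.2%.

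Genes next to Jak2 were read as well. Of 9 tested genes within 250 kb of Jak2, 5 rose and 0 fell beside 9.65% of all tested genes that rose. They were picked out after their values were seen. Cd274, which encodes the checkpoint ligand PD-L1, stood at 6.5, 12.6 and 14.1 FPKM in SLE1.2.3 mice 1, 2 and 3, against 3.74, 3.92 and 4.15 FPKM in control mice (log2 change 1.23 ± 0.26 SE; limma adjusted p = 0.029). Pdcd1lg2, which encodes PD-L2, had a log2 change of 0.44 (adjusted p = 0.039 in the same limma fit). Insl6, the gene nearest to the end of Jak2 at a gap of 8.26 kb, had 10.7 ± 1.10 FPKM in SLE1.2.3 cells and 6.52 ± 0.917 FPKM in control cells, and Plgrkt and Ric1 had log2 changes of 0.37 and 0.53. Jak1 had 1 tested neighbour within 250 kb, the adenylate kinase gene Ak4, with a log2 change of -0.88 (limma adjusted p = 0.062).

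Stat3 carries the signal of IL-6 and IL-23, both of which were in the medium. It lies on the minus strand of chromosome 11 at 100885098 to 100939540. Stat3 stood at 54.6, 57.8 and 53.7 FPKM in SLE1.2.3 mice 1, 2 and 3, against 45.6, 50.8 and 51.9 FPKM in control mice. Every SLE1.2.3 library lay above every control library, but the gap between 53.7 and 51.9 FPKM was smaller than the spread within either group. The log2 change was 0.16 ± 0.07 (SE; 95% interval -0.01 to 0.34) and did not pass (adjusted p = 0.17).

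Stat5a and Stat5b lie beside Stat3 on chromosome 11, at 100859351 to 100885169 and 100780731 to 100850724. They encode close relatives that carry the signals of IL-2 and IL-7. Stat5b stood at 71.9, 72.5 and 54.7 FPKM in SLE1.2.3 mice 1, 2 and 3, against 69.2, 78.3 and 78.8 FPKM in control mice. Mouse 3 alone lay below the controls, and the change of -0.19 did not pass (95% interval -0.50 to 0.12; adjusted p = 0.32). Stat5a had 38.6, 40.0 and 32.5 FPKM in SLE1.2.3 mice, against 32.3, 35.9 and 36.1 FPKM in control mice, with a change of 0.08 (95% interval -0.15 to 0.32; adjusted p = 0.56). The genes of Stat3 and Stat5a run towards each other and share their last 72 bases, and the strand setting of the counting is not given, so reads there cannot be assigned to one of them. Among stretches of 50 bases in their protein-coding GENCODE M21 transcripts, 14.7% of those of Stat5a also occur in Stat5b and 11.1% of those of Stat5b in Stat5a. No other pair of members shared such a stretch. None of the 12 other tested genes within 250 kb of Stat5a passed, beside 15.2% of all tested genes.

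Ratios of members were taken within each library. The ratio of Stat5a to Stat5b was 0.536, 0.551 and 0.595 in SLE1.2.3 mice 1, 2 and 3, against 0.466, 0.458 and 0.459 in control mice. It was higher in all 3 SLE1.2.3 libraries, by a factor of 1.21 between group means on the log scale. Stat3 over the sum of Stat5a and Stat5b was 0.494, 0.514 and 0.616 in SLE1.2.3 mice, against 0.450, 0.445 and 0.451 in control mice, a factor of 1.2. Stat4 over Stat6 was 0.348, 0.328 and 0.336 in SLE1.2.3 mice, against 0.242, 0.300 and 0.284 in control mice, a factor of 1.23. Of the JAK ratios, Jak3 over Jak1 was 1.59, 1.43 and 1.30 in SLE1.2.3 mice, against 1.61, 1.67 and 1.6 in control mice, also without overlap. Jak2 over Jak1 was 1.34, 0.981 and 0.671 in SLE1.2.3 mice, against 1.39, 1.48 and 1.31 in control mice, and overlapped. Such ratios cancel the scaling of a library. Each of the first 4 ratios reached p = 0.1 in a two-sided exact permutation test, the smallest p that 3 against 3 libraries allow, and Jak2 over Jak1 had an exact p of 0.2. Adjusted over the 5 ratios these became 0.125 and 0.2 in the exact test, so this design could not pass the threshold.

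**Figure D4:**
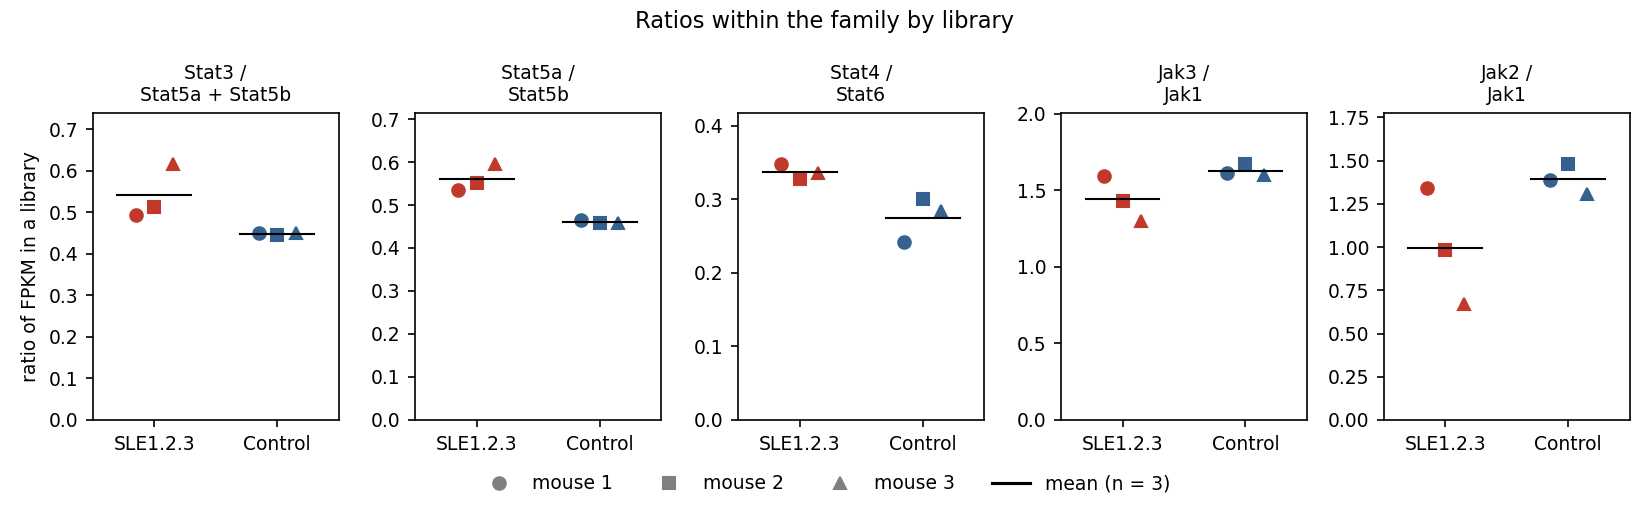
Ratio of FPKM values within each library (vertical axes, from 0) for 5 pairs, with SLE1.2.3 libraries on the left, control libraries on the right, symbols for the mouse number and a line at the mean. The control points of Stat5a over Stat5b lie between 0.458 and 0.466, and the SLE1.2.3 points lie between 0.536 and 0.595.

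Stat4 and Stat6 mark the alternative Th1 and Th2 routes, which the antibodies to interferon-γ and IL-4 were meant to hold back. Stat4 (chromosome 1, 51987148 to 52107189) stood at 19.4, 16.4 and 13.5 FPKM in SLE1.2.3 mice 1, 2 and 3, against 13.2, 17.8 and 17.2 FPKM in control mice. The groups covered much the same range, with a change of 0.03 (95% interval -0.35 to 0.42; adjusted p = 0.91). Stat6 (chromosome 10, 127642986 to 127660957) had 55.9, 50.0 and 40.3 FPKM in SLE1.2.3 mice, against 54.5, 59.1 and 60.6 FPKM in control mice. SLE1.2.3 mice 2 and 3 lay below every control library, and the change of -0.26 did not pass (95% interval -0.56 to 0.04; adjusted p = 0.19). Without SLE1.2.3 mouse 1 it was -0.36 and passed (limma adjusted p = 0.046). Stat6 and Stat2 lie 610 kb apart on chromosome 10. Of the 12 tested genes between them 0 rose and 3 fell, beside 9.65% and 5.58% of all tested genes.

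The SLE1.2.3 libraries differed among themselves more than the controls did. The SD of log2(FPKM + 1) was wider in the SLE1.2.3 group for 7 of the 9 members, beside 67.3% of tested genes. The coefficient of variation of Jak2 was 21.1% in SLE1.2.3 cells and 5.21% in control cells, and that of Stat6 was 16.1% in SLE1.2.3 cells and 5.49% in control cells. Stat3 was an exception, with 3.90% in SLE1.2.3 cells and 6.76% in control cells. Mouse 1 lay nearest to the control mean for 5 of the 9 members, with a median distance over the members of 0.07 on the log2 scale, against 0.20 for mouse 2 and 0.37 for mouse 3. Over all tested genes the same distances were 0.15, 0.19 and 0.24. For Stat2 the distances were 0.62, 0.89 and 0.80 in SLE1.2.3 mice 1, 2 and 3, while no control library lay more than 0.06 from the control mean.

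Genes that the STAT proteins are known to regulate, most of them switched on and some, such as Bcl6, held down, were read from lists. Counts of called genes in these lists, like the count over the whole table, moved when 1 library was dropped, and their ranges over the 6 single removals are given with each list. The list for STAT2 and IRF9 had 22 genes, of which 10 were expressed enough to be tested, and 6 of these rose and 0 fell, beside 9.65% and 5.58% of all tested genes. Their median log2 change was 0.68, against 0.01 over all tested genes, and 1 of the 10 reached the level filter only through the SLE1.2.3 libraries. Irf9, the DNA-binding partner of STAT2, stood at 13.9, 14.6 and 13.5 FPKM in SLE1.2.3 mice 1, 2 and 3, against 6.79, 8.33 and 7.87 FPKM in control mice. Like Stat2, it was separated in every library, with a log2 change of 0.80 ± 0.08 (SE; limma adjusted p = 0.0064). The ubiquitin-like modifier gene Isg15 stood at 10.2 ± 2.57 FPKM in SLE1.2.3 cells and 2.61 ± 0.635 FPKM in control cells, and the transcription factor gene Irf7 had 5.21 ± 0.838 FPKM in SLE1.2.3 cells and 2.1 ± 0.624 FPKM in control cells (SD, n = 3 each). Xaf1, Mx1 and the RNA sensor gene Ifih1 had log2 changes of 0.93, 0.55 and 0.57. The 4 tested genes that did not pass were Bst2, Ifit2, Isg20 and Oas3, and the mean of Oas3 was 5.08 FPKM in SLE1.2.3 cells and 5.44 FPKM in control cells. Rsad2 and Mx2 were far below 1 FPKM in both groups. Among the listed genes too low to be tested, the groups overlapped for Rsad2, Mx2, Ifi44 and Ifit3. Ifit1, Usp18, Cmpk2, Oas1a, Oas2, Oasl1, Oasl2 and Rtp4, also untested, were higher in every SLE1.2.3 library than in any control library. Several of these values were very low, such as Oasl1 at 0.061 to 0.143 FPKM in SLE1.2.3 libraries and 0.008 to 0.047 FPKM in control libraries. The share without overlap was taken over tested genes only, so these untested genes have no such share to be set beside. Dropping 1 library gave 1 to 7 higher and 0 lower, with 1 when SLE1.2.3 mouse 2 was dropped and 2 and 3 when control mouse 2 or 3 was. After removal of SLE1.2.3 mice 2 and 3, 1 of the 10 passed as higher.

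The receptors of type I interferon, which signal to STAT2, did not pass. Ifnar1 stood at 18.0 ± 1.2 FPKM in SLE1.2.3 cells and 17.1 ± 0.758 FPKM in control cells, and Ifnar2 had 11.2 ± 0.685 FPKM in SLE1.2.3 cells and 10.6 ± 0.918 FPKM in control cells (SD, n = 3 each). Both groups overlapped for each of these receptor genes.

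Of 17 tested STAT3 targets of Th17 cells, 7 rose and 0 fell, beside 9.65% and 5.58% of all tested genes. The median log2 change of the list was 0.23, and 1 of the 17, Il10, reached the level filter only through the SLE1.2.3 libraries. Batf, which encodes an AP-1 factor, had 99.2, 120 and 127 FPKM in SLE1.2.3 mice and 57.6, 63.4 and 60.0 FPKM in control mice, without overlap (log2 change 0.92 ± 0.11 SE; limma adjusted p = 0.0074). Il23r, Rora, Il10 and Bcl3 rose by 1.09, 1.23, 1.72 and 0.95 on the log2 scale, and Il17a, which defines the lineage, by 1.79. Socs3, the feedback inhibitor that STAT3 induces, had a mean of 49.9 FPKM in SLE1.2.3 cells and 42.5 FPKM in control cells (adjusted p = 0.092), and Hif1a had 242 FPKM in both. Il21 and Irf4 had log2 changes of -1.65 and -1.02 without passing. Dropping 1 library gave 5 to 7 higher and 0 to 5 lower. The absence of falling genes did not hold in every fit, since 5 passed as lower when SLE1.2.3 mouse 1 was dropped, 4 with array weights, 3 after rescaling to a common FPKM sum and 1 in the fit blocked by mouse number.

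Of 15 tested STAT5 targets 2 rose, 2 fell and 11 were not called, beside 9.65% of all tested genes that rose and 5.58% that fell. The median log2 change of the list was -0.05. Without SLE1.2.3 mouse 1 these counts were 4 higher and 6 lower, and they were 0 higher and 1 lower when SLE1.2.3 mouse 2 or any 1 control mouse was dropped. Cish, an inhibitor gene induced by STAT5, stood at 25.9, 19.4 and 20.5 FPKM in SLE1.2.3 mice 1, 2 and 3, against 50.4, 45.1 and 46.7 FPKM in control mice. It was lower in every SLE1.2.3 library than in any control library (log2 change -1.09 ± 0.12 SE; limma adjusted p = 0.0065). Socs2, another such inhibitor gene, had 12.9, 4.13 and 2.97 FPKM in SLE1.2.3 mice, against 48.3, 29.4 and 28.4 FPKM in control mice. Both genes that rose, Bcl6 and Prdm1, encode repressors: Bcl6 is held down by STAT5 in T cells, and Prdm1 encodes Blimp-1. Bcl6 had 7.58 ± 1.01 FPKM in SLE1.2.3 cells and 3.85 ± 0.476 FPKM in control cells, and Prdm1 had 5.19, 13.5 and 19.0 FPKM in SLE1.2.3 mice and at most 0.627 FPKM in control mice. Prdm1 reached the level filter only through the SLE1.2.3 libraries. Over the 15 tested genes of this list the groups did not overlap for 10, beside 41.5% of all tested genes. Among the 11 that did not pass, the groups did not overlap for 6. Of these, the survival gene Bcl2 had a log2 change of -1.80 (limma adjusted p = 0.052), and Pim2, Bcl2l1 and Ccnd2 had -1.30, -0.92 and -0.75, while Il2rb and Osm had 0.68 and 0.61. Il2ra, Pim1, Socs1, Il7r and Ccnd3, whose groups overlapped, had changes of 0.06, 0.16, -0.20, -0.03 and -0.05.

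Of 11 tested STAT4 targets 6 rose and 0 fell, beside 9.65% and 5.58% of all tested genes. The median log2 change of the list was 1.34, against 0.01 over all tested genes, while Stat4 itself had a change of 0.03. Il18r1 stood at 34.7, 58.7 and 61.7 FPKM in SLE1.2.3 mice 1, 2 and 3, against 13.1, 16.9 and 18.7 FPKM in control mice. Il18rap, the second chain of the IL-18 receptor, rose by 2.33 on the log2 scale, and Ifng, Tbx21 and Hlx rose by 5.79, 2.86 and 2.19. Tbx21 and Hlx reached the level filter only through the SLE1.2.3 libraries. Il12rb2, the IL-12 receptor chain that STAT4 binds, had 11.2 FPKM in SLE1.2.3 cells and 10.7 FPKM in control cells (adjusted p = 0.95). Most of these genes are also expressed by γδ T, NK and CD8 T cells, whose summed markers are given above, and the part of such cells in these values was not tested. The count of 6 became 1 when SLE1.2.3 mouse 2 or any 1 control mouse was dropped, 8 when SLE1.2.3 mouse 1 was, 2 with no level filter and 4 without SLE1.2.3 mice 2 and 3.

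Of 8 tested STAT6 targets, 1 rose, 2 fell and 5 were not called, beside 9.65% of all tested genes that rose and 5.58% that fell. The median log2 change of the list was -0.10. Dropping 1 library gave 1 to 2 higher and 1 to 3 lower. Il13 stood at 18.5, 11.3 and 25.1 FPKM in SLE1.2.3 mice 1, 2 and 3, against 0.742, 1.05 and 1.03 FPKM in control mice, although antibody to IL-4 was present in both. It passed with a log2 change of 3.25 (SE 0.26; limma adjusted p = 0.0027) and reached the level filter only through the SLE1.2.3 libraries. Il24 fell by 2.42 on the log2 scale, and Cish, which is also in the STAT5 list, fell by 1.09. Il4ra had 54.6 ± 3.23 FPKM in SLE1.2.3 cells and 54.4 ± 7.45 FPKM in control cells (SD, n = 3 each).

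**Figure D5:**
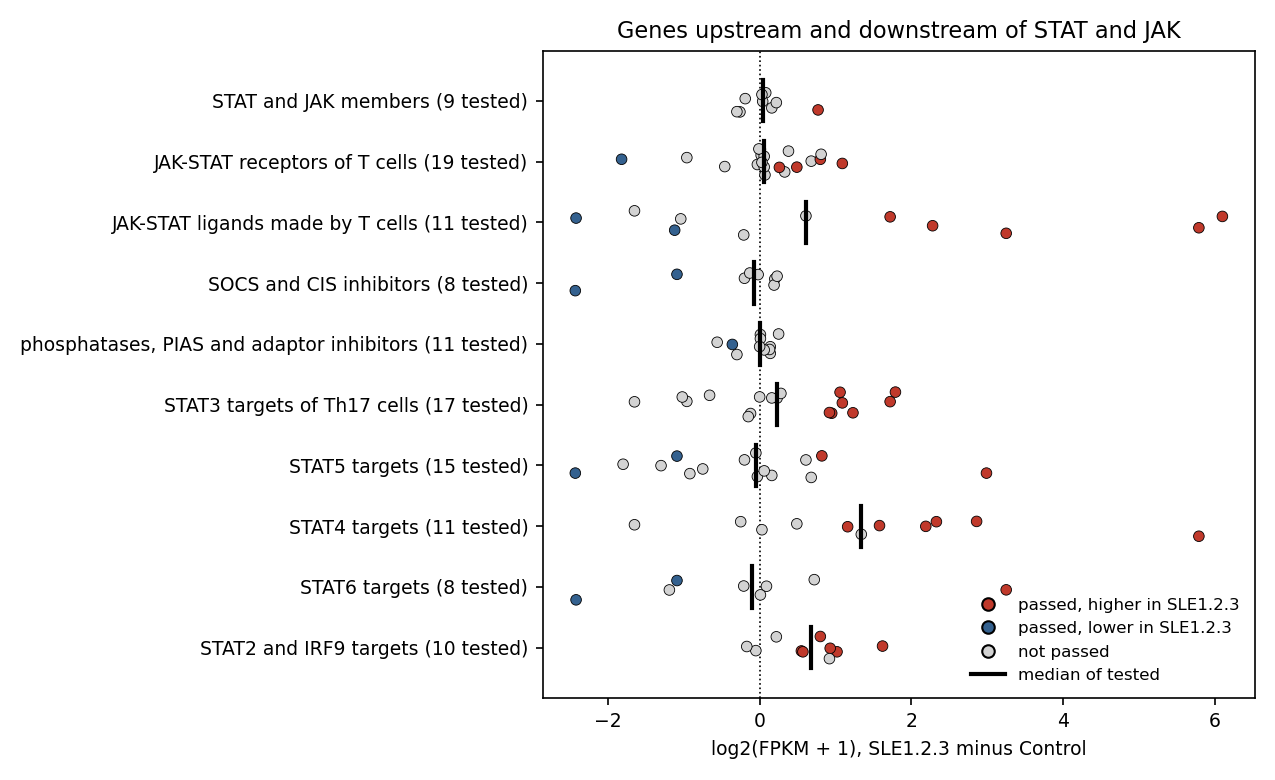
Log2 change, SLE1.2.3 minus control (horizontal axis), of the tested members of 9 pathway lists and of the STAT and JAK genes (top row), with 1 point per gene, coloured where it passed, and a bar at each median. The STAT and JAK genes lie between -0.30 and 0.77, whereas STAT4 targets reach 5.79 and the ligand genes 6.10.

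Inhibitors of the pathway were read from 2 lists. Among 8 tested SOCS and CIS genes, Cish and Socs2 fell, 0 rose and 6 did not pass, and 1 fell when SLE1.2.3 mouse 2 or any 1 control mouse was dropped. Among 11 tested phosphatase, PIAS and adaptor genes, Pias2 fell by 0.36 on the log2 scale (limma adjusted p = 0.047), 0 rose and 10 did not pass. This call was lost in most alternatives: 0 genes of that list fell in 5 of the 6 single removals, with no level filter, with no variance trend, after rescaling to a common FPKM sum and in the fit blocked by mouse number, and 3 fell when SLE1.2.3 mouse 1 was dropped. For all inhibitors together the share that passed was close to the 15.2% of all tested genes. Of 19 tested receptor genes 4 rose, 1 fell and 14 did not pass, beside 9.65% of all tested genes that rose and 5.58% that fell. Their median log2 change was 0.06. Dropping 1 library gave 2 to 8 higher and 0 to 3 lower, with 8 and 3 when SLE1.2.3 mouse 1 was dropped and 2 higher in each of the other 5 removals. Ifngr1, the ligand-binding chain of the interferon-γ receptor, stood at 95.8, 107 and 101 FPKM in SLE1.2.3 mice 1, 2 and 3, against 56.5, 62.9 and 54.1 FPKM in control mice. Il23r, Il15ra and Il21r also rose, with Il21r at 45.6 ± 0.338 FPKM in SLE1.2.3 cells and 38.1 ± 0.381 FPKM in control cells. Il10ra fell, at 3.20, 1.23 and 0.841 FPKM in SLE1.2.3 mice and 7.67, 8.42 and 8.35 FPKM in control mice. The shared γ chain gene Il2rg, whose partner is Jak3, had 112 ± 7.81 FPKM in SLE1.2.3 cells and 111 ± 5.83 FPKM in control cells (SD, n = 3 each).

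Among 11 tested ligand genes 5 rose and 2 fell, beside 9.65% and 5.58% of all tested genes. Dropping 1 library gave 3 to 6 higher and 0 to 4 lower. The 4 came without SLE1.2.3 mouse 1, and 0 were lower in each of the other 5 removals. Il13, Csf2, Il10, Il22 and Ifng rose, and of these Il13 and Il10 reached the level filter only through the SLE1.2.3 libraries. Csf2, which encodes GM-CSF and signals through Jak2 and STAT5, stood at 17.7, 31.5 and 23.9 FPKM in SLE1.2.3 mice 1, 2 and 3, against 3.85, 3.96 and 4.46 FPKM in control mice. Il2, the main STAT5 ligand of T cells, had 2.47, 1.5 and 0.977 FPKM in SLE1.2.3 mice, against 5.87, 4.99 and 3.29 FPKM in control mice, and fell by 1.12 on the log2 scale (SE 0.25; limma adjusted p = 0.036). Il24 was the other ligand gene that fell, and after removal of SLE1.2.3 mice 2 and 3 neither passed. The lists share 20 of their 113 genes, so these counts are not independent of each other.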

How the data were processed

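RNA was measured in 6 libraries of polyadenylated RNA made with a SMARTER kit, per the labels. The authors deposited 1 table of FPKM values per gene, with feature lengths and coordinates. Tools listed in the submitters' processing notes, without their roles, are DESeq2 1.24.0, STAR 2.7.3a, FastQC 0.11.9, featureCounts 2.0.0 and cutadapt 2.10, with the build mm10; neither annotation nor strand setting is stated there. Depth was recovered from the FPKM steps: 100.0% of low values, under 30 reads, were whole within 0.15 of a read.

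The 11378 genes whose mean reached 1 FPKM were fitted as log2(FPKM + 1), which understates changes of low genes, with limma 3.58.1 in R 4.3.3 (mean-variance trend, genotype as the only term). Adjusted p-values are Benjamini-Hochberg over all tested genes, with a threshold of 0.05, and scripts were tested on simulated data. The 3 mice per group are separate samples. Members, gene lists and ratios were chosen with earlier results of these data known. Named genes are the 9 members, up to 6 genes with the smallest adjusted p in each of 9 lists (2 where none passed), and the 3 genes most like each called member; other genes, among them neighbours, receptors and genes that did not pass, were chosen after their values were seen. Alternatives were a pseudocount of 0.1, other filters, scalings and variance models, voom on recovered reads, a mouse-number block and left-out libraries. Some listed genes are counted but not reported here by name.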

Additional observations from a re-analysis of the deposited data

How the results depend on the processing

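Stat2 passed as higher in every fit run, with changes between 0.62 and 0.88 on the log2 scale. The count of called members stayed at 1 in 15 of 17 alternatives and became 3 without SLE1.2.3 mouse 1, which added Stat6 and Jak1. It became 4 with array weights, which added Stat3 (0.21), Stat6 (-0.22) and Jak1 (0.29) and which placed a weight of 7.09 on SLE1.2.3 mouse 2 and 0.29 to 1.18 on the others. Leaving out 1 library each gave between 1 and 3 called members. Values near 0 changed sign: Stat4 to -0.01 under quantile normalization, Stat4 to -0.09 and -0.10 without SLE1.2.3 mouse 1 or control mouse 1, Jak3 to -0.0043 without control mouse 1 (over all single removals -0.10 to 0.16 for Stat4 and -0.0043 to 0.08 for Jak3), and Jak1 and Jak3 to -0.0022 and -0.04 after removal of SLE1.2.3 mice 2 and 3. The 1733 genes called over the whole table became 798 without a filter, 1129 at a mean of at least 5 FPKM, 5665 with array weights, 665 after removal of SLE1.2.3 mice 2 and 3, and between 240 and 3701 with 1 library left out; the highest count came when SLE1.2.3 mouse 1 was absent, the lowest when mouse 2 of that line was, and dropping control mouse 1, 2 or 3 gave 327, 261 or 288. Rescaling to a common FPKM sum moved the median of all tested genes to 0.112, and Stat2 then stood at 0.88; 990 genes were then higher and 351 lower, against 922 and 882 under quantile normalization and 1098 and 635 as reported. With the mouse number as a replicate block 940 genes passed, Stat2 among them. Deviations of same-numbered libraries from their group means correlated by -0.004, 0.1 and 0.091. SLE1.2.3 mice 2 and 3 correlated best with the control of the same number, and SLE1.2.3 mouse 1 with control mouse 2. Such correlations over 3 libraries per group cannot decide whether the numbers pair the mice. The causes of these shifts were not tested.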
